A study of Talaromyces verruculosus with 6 samples.

Results

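A set of 29 genes of the filamentous fungus Talaromyces verruculosus was described by how its transcript levels differed between replicate cultures, with and without pectin. The 29 genes were chosen from 11326 annotated genes on 3 conditions, using RPKM, the reads on a gene's exons scaled to the exon length and to the number of mapped reads. Their mean RPKM over the 6 libraries was at least 5. Replicate 1 had at least 2 times the RPKM of replicate 3, in the control group and also in the pectin group. The mean of the pectin libraries lay between 0.5 and 2 times the mean of the control libraries. The levels in replicates 1 and 3 and the means of the groups therefore chose these genes. They are given as a description, and calls for pectin against control are printed beside those over all genes with nothing read from them.

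All libraries came from actively growing mycelia of the same strain, TS63-9, started from plugs of agar cultures and grown for 24 h in a basic medium. The control group held 3 cultures without pectin, and the pectin group held 3 cultures given pectin at 5 g/L. The series' text calls them biological replicates, but the labels do not say what replicates of the same number share, such as a day, a plug or a handling batch. Messenger RNA was purified with poly-T beads and read as paired ends.

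Talaromyces verruculosus is a mould that grows as branching hyphae and is known for secreting enzymes that break down plant cell walls. Pectin is a galacturonic acid-rich polysaccharide of those walls. Fungi take up the sugars that such enzymes release, and many of their genes are known to respond to the carbon source, to nutrient supply and to the age of the culture. The files pair the locus tags with no gene names or descriptions, so the 29 genes are given by tag and position, and no role is stated for any of them. Likewise no gene list by function could be applied.

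The libraries held 10320372 to 11393959 exon reads each. Control 1 stood apart in its TMM factor, edgeR's scaling factor for composition, which was 1.18 beside 1.02 and 1.03 in the other controls and 0.903 to 0.945 in the pectin libraries. The folds between replicates were therefore also computed with TMM factors. Medians over genes with a mean RPKM of at least 5 for replicate 1 over replicate 3 were then 0.944 in control and 1.05 with pectin, and with RPKM they were 1.07 and 0.989.

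By RPKM, the fold between replicates 1 and 3 was rare among expressed genes and was met more often in control than with pectin. TMM factors lower this fold in control and raise it with pectin, and the counts that follow were not made with them. Of 6778 genes with a mean RPKM of at least 5, 592 (8.73%) had at least 2 times the RPKM in control 1 as in control 3. In the pectin group 142 (2.10%) had at least 2 times the RPKM in pectin 1 as in pectin 3. Both conditions were met by 75 genes (1.11%), which was 12.7% of the control list and 52.8% of the pectin list. The limits on the pectin to control ratio removed 46 of these. Of the removed genes, 32 had a pectin mean under 0.5 times the control mean and were all highest in control 1, and 14 had one over 2 times and were all highest in pectin 1. The 29 genes that stayed were 0.428% of the expressed genes. The mirror rule, with replicate 3 at least 2 times replicate 1 in both groups and the same limits, was met by 152 genes.

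**Figure D1:**
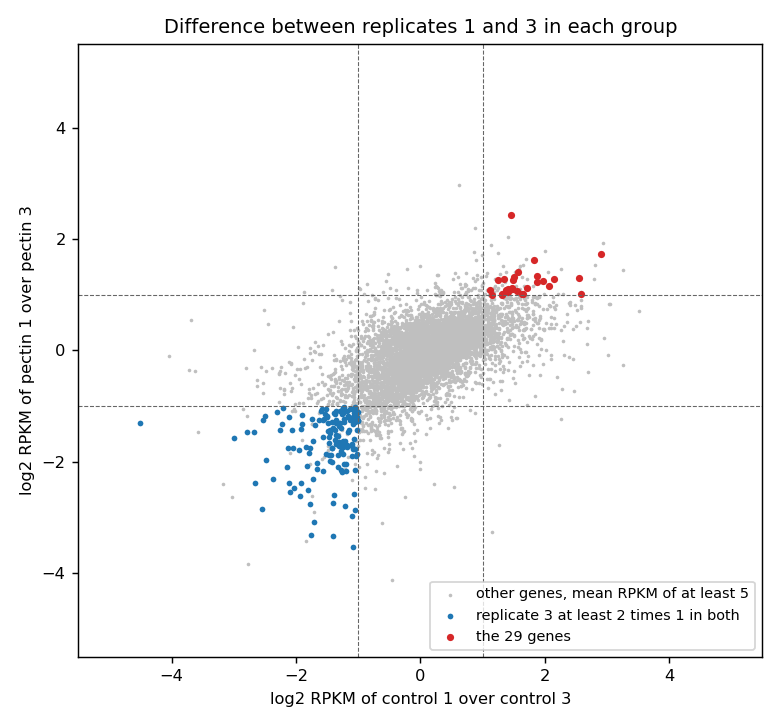
log2 RPKM of replicate 1 over replicate 3 in control (horizontal axis) and pectin cultures (vertical axis), 1 point per gene with a mean RPKM of at least 5. The 29 genes (red) lie beyond 2-fold in both groups at upper right, the 152 genes of the mirror rule (blue) at lower left, and grey points in the same corners fall outside the limits on the pectin to control ratio. The 9 genes at 0 in replicate 1 or 3 of a group are not drawn.

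Most of the 29 genes were expressed at a moderate or low level. Their mean RPKM had a median of 15.3 and ran from 5.82 in ZTR_07386 to 849 in ZTR_04307, while the median over all 6778 expressed genes was 25.2. In 4 genes the mean was at least 50 RPKM and in 18 it was under 20. The median RPKM of the 29 genes was 23.7, 10.85 and 7.46 in controls 1, 2 and 3, and 19.7, 11.98 and 8.02 in pectin 1, 2 and 3. Over all expressed genes the library medians stayed between 22.7 and 26.7 RPKM. The level of the set in replicate 1 was near that of a typical expressed gene, and in replicate 3 it was well below. The fall from replicate 1 to replicate 3 was required by the choice of the genes.

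Together the 29 genes took 0.472%, 0.267% and 0.163% of the exon reads in controls 1, 2 and 3, and 0.399%, 0.219% and 0.172% in pectin 1, 2 and 3. These shares are ordered alike in both groups, with replicate 1 above replicate 3 by the choice of the genes. In bulk RNA, fewer hyphae that express a gene and less of its RNA per hypha cannot be told apart. By RPKM, control 1 held the highest value of 23 of the 29 genes and pectin 1 that of the other 6. TMM factors, 1.18 in control 1 and 0.903 in pectin 1, lower control 1 against pectin 1. The counts of highest and lowest values were not made with them. The lowest value was in pectin 3 for 18 genes, in control 3 for 9, and in control 2 and pectin 2 for 1 each.

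ZTR_04307 was by far the most abundant of the set. This gene of 2 exons and 699 bp of coding sequence lies on contig LHCL01000009 from 131450 to 132201 on the plus strand. In the order of replicates 1, 2 and 3, as in all lists of values here, its RPKM was 1272, 869 and 502 without pectin and 1210, 743 and 498 with it. By RPKM, the libraries of each number were close to each other across the groups. The groups overlapped fully, with means of 881 ± 386 RPKM (SD, n = 3) in control and 817 ± 362 RPKM (SD, n = 3) with pectin. Conditions on the folds and on the ratio leave little room for groups that do not overlap. This gene alone carried a large part of the summed level, and without it the summed RPKM of the other genes was 1413, 670 and 472 without pectin and 1163, 629 and 524 with it. The libraries of each group kept their order without it. Of that order only the place of replicate 2 was free, since the choice of the genes put replicate 1 above replicate 3.

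ZTR_05630, with 3 exons on LHCL01000023 from 208457 to 210730 on the minus strand, had 415, 219 and 142 RPKM in controls 1 to 3. With pectin it had 322, 169 and 155 RPKM in replicates 1 to 3. Replicate 1 was the highest in each group, and replicate 2 with pectin was close to replicate 3. ZTR_10927, with 4 exons on LHCL01000070 from 13847 to 16330 on the plus strand, had 171, 78.3 and 43.6 RPKM without pectin and 194, 61.6 and 82.5 with it. In this gene replicate 2 was the lowest of the pectin libraries, so the pectin group did not follow the order of the control group.

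ZTR_03109, with 4 exons on LHCL01000027 from 271803 to 273557 on the minus strand, had 125, 83.4 and 57.8 RPKM in controls 1 to 3. Its pectin libraries 1 to 3 had 123, 62.6 and 57.8 RPKM, so libraries 1 and 3 were almost equal across the groups. ZTR_09490, with 3 exons on LHCL01000163 from 9675 to 10968 on the minus strand, had 62.3, 31.6 and 25.0 RPKM without pectin and 82.2, 47.8 and 40.5 with it. Each pectin library of this gene was above the control library of the same number, while the groups still overlapped. ZTR_07807, with 6 exons on LHCL01000045 from 237821 to 239076 on the plus strand, had 46.9, 18.7 and 17.7 RPKM without pectin and 36.4, 31.6 and 17.6 with it. Here replicate 2 was near replicate 3 in control and near replicate 1 with pectin.

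**Figure D2:**
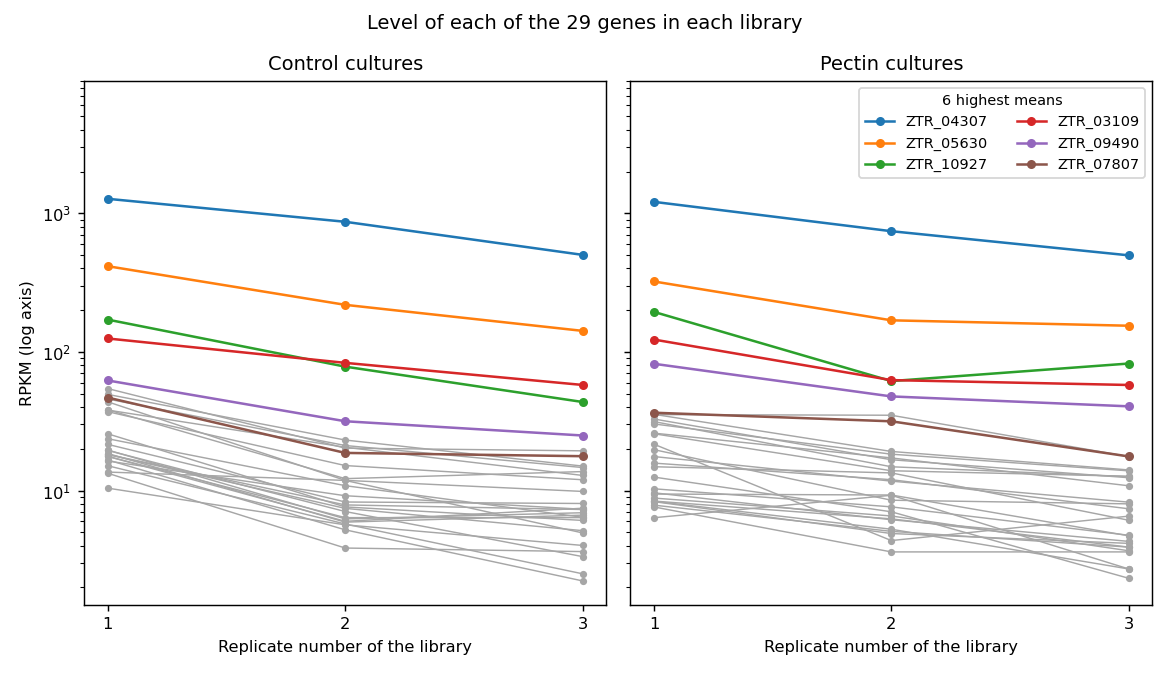
RPKM of each of the 29 genes (vertical log axis) by replicate number in control (left) and pectin cultures (right), with 1 line per gene and the 6 genes of highest mean in colour. The numbers only name the libraries, and the lines join the values of a gene, which lie lower in replicate 3 than in replicate 1 in every case because the genes were chosen so. ZTR_04307 lies between 498 and 1272 RPKM in all 6 libraries.

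The other genes had lower means. ZTR_10889, with 2 exons on LHCL01000087 from 38692 to 39390 on the plus strand, had 49.4, 23.1 and 15.0 RPKM without pectin and 30.2, 18.3 and 13.9 with it. ZTR_01534, with 1 exon on LHCL01000003 from 241606 to 242919 on the plus strand, had 54.4, 20.2 and 19.4 RPKM without pectin and 26.0, 17.2 and 10.8 with it. In both genes control 1 was far above every other library. ZTR_00975, with 4 exons on LHCL01000004 from 1027483 to 1028735 on the minus strand, had 43.6, 11.8 and 9.86 RPKM without pectin and 14.9, 13.4 and 6.11 with it. ZTR_03534, with 2 exons on LHCL01000012 from 342170 to 343493 on the minus strand, had 15.1, 5.74 and 2.51 RPKM without pectin and 7.85, 5.08 and 3.91 with it. These genes had a wide range in the control group and a narrower one with pectin, where the fold of ZTR_03534 was only 2.01 beside 6.02 in control. ZTR_04412, with 1 exon on LHCL01000009 from 403724 to 404782 on the plus strand, had 19.5, 7.06 and 3.34 RPKM without pectin and 19.7, 8.52 and 8.02 with it, so replicate 1 was alike in both groups. ZTR_09434, with 2 exons on LHCL01000089 from 57949 to 58522 on the minus strand, had 37.1, 15.2 and 12.0 RPKM without pectin and 35.3, 34.9 and 17.6 with it. In this gene pectin 2 was level with pectin 1. The genes of this paragraph were picked to show these shapes after their values were seen.

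The size of the fold differed among the genes. In control, replicate 1 was 2.16 to 7.46 times replicate 3, with a median of 2.83, and 12 of the 29 genes reached 3 times. With pectin the fold ran from 2.00 to 5.37 with a median of 2.18, and 3 genes reached 3 times. The fold was the larger one in control for 27 of the 29 genes with RPKM and for 20 with TMM factors, where the medians were 2.50 in control and 2.32 with pectin. With TMM factors 2 of the 29 genes were under 2-fold in control, with a lowest value of 1.90, and 0 were under 2-fold with pectin.

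ZTR_08680 had the strongest difference between libraries when the smaller of its 2 folds was taken. This gene with 1 exon, on LHCL01000064 from 147897 to 148715 on the minus strand, had 16.6, 5.21 and 2.23 RPKM without pectin and 21.6, 4.36 and 6.54 with it. Replicate 1 was thus 7.46 times replicate 3 in control, with a 95% counting interval of 5.13 to 11.2, and 3.30 times with pectin, with an interval of 2.59 to 4.24. Such intervals are exact binomial (Clopper-Pearson) on the exon reads of the 2 libraries, and cover counting error only. ZTR_06587, with 5 exons on LHCL01000062 from 36856 to 37715 on the minus strand, had 18.2, 7.44 and 5.14 RPKM without pectin and 8.37, 5.26 and 2.72 with it. Together with ZTR_08680 it was 1 of 2 genes with at least 3-fold in both groups.

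ZTR_05265, with 2 exons on LHCL01000025 from 18124 to 18987 on the minus strand, was unlike most others in having the larger fold with pectin. It had 13.6, 11.8 and 4.95 RPKM without pectin and 12.5, 7.03 and 2.33 with it, so that the fold was 2.75 in control and 5.37 with pectin. ZTR_05404, with 6 exons on LHCL01000014 from 125443 to 126709 on the plus strand, had 38.1, 20.5 and 12.9 RPKM without pectin and 32.8, 16.7 and 12.4 with it. The values of this gene were close across the groups at each number.

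The remaining 2 genes of those with the largest folds had higher values with pectin at each replicate number. ZTR_05991, with 2 exons on LHCL01000011 from 142360 to 143168 on the minus strand, had 23.7, 10.85 and 6.42 RPKM without pectin and 35.5, 19.1 and 14.1 with it. ZTR_01037, with 2 exons on LHCL01000002 from 2818 to 4973 on the minus strand, had 19.6, 6.25 and 6.92 RPKM without pectin and 31.4, 14.8 and 12.6 with it. In both genes pectin 1 was the highest library, and control 1 lay above pectin 2 and pectin 3, so the groups overlapped.

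The precision of the folds was limited by read numbers in the weaker genes. In its lowest library a gene of the set had 28 to 5649 exon reads, with a median of 105. The counting interval of the fold lay above 1 in 29 of 29 genes in each group. It lay above 2 in 26 genes in control and in 11 with pectin, and it reached below 2 in at least 1 group in 18 genes. At the threshold itself, ZTR_01331 had 18.2, 7.88 and 7.30 RPKM without pectin and 8.32, 4.90 and 4.16 with it, and ZTR_00418 had 16.3, 9.18 and 7.33 and then 9.44, 9.29 and 4.72. Both had a fold of 2.00 with pectin. Just outside were ZTR_10998, with 2.14 in control and 1.999 with pectin, and ZTR_10204, with 1.99 in control and 2.22 with pectin. These pairs are separated by far less than the counting error, so the set has no sharp edge.

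Replicate 2 was not part of the fold that chose the genes, although it entered the means. It lay between replicates 1 and 3 in both groups in 22 of the 29 genes (75.9%). The same held for 22.1% of the 6778 expressed genes and for 52.0% of the 152 genes of the mirror rule. A wide gap between replicates 1 and 3 by itself leaves more room between them, and no test of these shares was made. In control, replicate 2 was nearer to replicate 3 than to replicate 1 on a log scale in 27 of 29 genes, and control 1 was at least 2 times control 2 in 21. With pectin it was nearer to replicate 3 in 17 of 29, and pectin 1 was at least 2 times pectin 2 in 5. The median position of replicate 2, on a log scale from 0 at replicate 3 to 1 at replicate 1, was 0.281 in control and 0.445 with pectin. Over all expressed genes the medians were 0.121 and 0.482.

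Replicate 3 was the lowest of its group, ties included, in both groups in 23 of 29 genes. Replicate 1 was the highest of its group in both groups in 28 of 29 genes, and was above replicate 3 by the choice of the genes. The other gene, ZTR_06554, named for this after its values were seen, had 13.3, 3.85 and 3.63 RPKM without pectin and 6.37, 9.25 and 2.72 with it. Replicate 2 was below replicate 3 in 4 genes in control and in 2 with pectin.

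Reads outside annotated exons are counted apart from the exon reads that RPKM uses. They are not reads in introns alone, since genes with 1 exon have them too. ZTR_08680 had 108 in control 1, although its 1 exon of 819 bp fills the annotated span. Where such reads lie is not given. The 29 genes had 57 to 30944 such reads over all libraries, with a median of 293. Relative to all mapped reads they were more frequent in replicate 1 than in replicate 3 in 29 of 29 genes in control, in 27 with pectin and in 27 in both groups (93.1%), beside 41.0% of the expressed genes in both groups. The median fold was 2.44 in control and 2.27 with pectin, beside 1.06 and 1.12 over expressed genes. At least 2-fold in both groups was reached by 15 of the 29 genes (51.7%) and by 2.64% of the expressed genes. These reads come from the same libraries as the exon reads, and how many come from the same transcripts was not tested. They are therefore not a separate readout. No test is given because the contrast is the one that chose the genes.

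In ZTR_04307 the reads outside exons numbered 7537, 6605 and 3353 without pectin and 7007, 4077 and 2365 with it. They followed the exon reads in being highest in replicate 1. ZTR_05630 had 3667, 2143 and 1259 without pectin and 2712, 1253 and 1174 with it, with the same order. The 2 genes without a higher value in pectin 1 than in pectin 3 were ZTR_07807, with 29, 35 and 39 reads in pectin 1 to 3, and ZTR_06587, with 24, 34 and 31. Those values rest on few reads. The most extreme ratio, in ZTR_05404 with pectin, rested on 28 reads in pectin 1, 8 in pectin 2 and 1 in pectin 3.

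**Figure D3:**
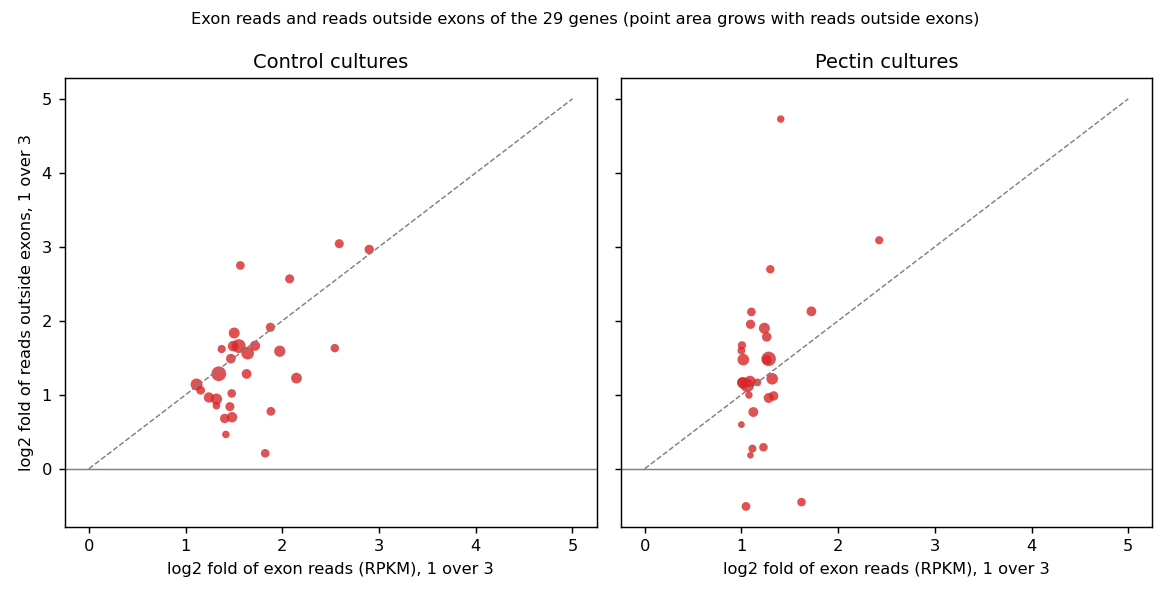
log2 fold of replicate 1 over replicate 3 in exon reads (horizontal axis, RPKM) and in reads outside exons relative to all mapped reads (vertical axis) for the 29 genes in control (left) and pectin cultures (right), with equal folds on the dashed line and larger points for genes with more reads outside exons. All 29 points in control and 27 of 29 with pectin lie above 0 on the vertical axis, and the point highest up with pectin rests on 1 read in pectin 3.

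The share of reads outside exons was also compared between pectin and control, a contrast in a measure that the choice of genes did not use apart from the exon reads in it. None of the 28 genes with enough reads passed the test for a change in this share (edgeR's quasi-likelihood test of the interaction of read type and group, 0 higher and 0 lower, lowest adjusted p = 0.420). Over all 8062 genes tested, 20 (0.248%) had a higher and 59 (0.732%) a lower share with pectin. At an unadjusted p under 0.05 there were 2 of the 28 genes, beside 11.0% of all genes tested. The log2 changes of the share ran from −0.91 to 1.11 with a median of −0.05, beside a median of 0.00 over all genes tested. ZTR_11235 was not tested, because it had too few reads outside exons.

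The 29 genes had a larger share of reads outside exons than expressed genes as a whole, with a median over the pooled libraries of 21.5% beside 14.5%. They were also shorter, with a median coding length of 1032 bp beside 1356 bp. No comparison with genes of like length was made. By library the median share was 19.6%, 22.6% and 23.6% without pectin and 17.0%, 21.1% and 18.3% with it. In each library this was above the median over expressed genes, which ran from 11.8% to 17.3%. Exon-exon junction reads made up a median of 33.7% of the exon reads of the 25 genes with several exons, and 34.3% in expressed genes with several exons. Uniquely mapped reads made up 100% of the exon reads in every one of the 29 genes, so reads shared with near-identical copies do not enter these values.

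In edgeR's quasi-likelihood test across all genes, 0 of the 29 genes passed an adjusted p of 0.05 as higher and 0 as lower. Over the 9177 genes tested, 844 (9.20%) were higher and 642 (7.00%) lower. At an unadjusted p under 0.05 there were 0 of the 29 genes and 31.3% of all genes tested, while DESeq2's Wald test called 0 of the 29 at an adjusted p under 0.05 and 1 at an unadjusted one, beside 10.4% higher and 9.17% lower of all genes it tested. All 29 passed the filter on low counts. Since the ratio of the group means was limited by the choice of the genes, and the spread between replicates was large by the same choice, nothing is read from these counts. The values of pectin and control libraries overlapped in 29 of 29 genes. The conditions on the folds and on the ratio leave little room for groups that do not overlap, so this too says nothing beside the 14.2% of all genes tested with pectin libraries entirely above the controls and the 24.1% entirely below.

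The log2 change with pectin ran from −0.75 to 1.06 over the 29 genes, with a median of −0.24 beside −0.01 over all genes tested, and 12 genes were above 0 and 17 below. The standard errors ran from 0.36 to 0.78. The highest value belonged to ZTR_01037, at 1.06 with an SE of 0.49, from means of 10.9 ± 7.53 RPKM (SD, n = 3) without and 19.6 ± 10.3 RPKM (SD, n = 3) with pectin. It was 0.49 to 1.64 over the fits that left out 1 library each. At 1.64, without control 1, it was the 1 gene of the set called higher, beside 10.1% higher and 7.65% lower of all genes tested in that fit. ZTR_01037 was also called without control 1 and pectin 1 together, at 1.11, a fit chosen after seeing the data. With a term for the replicate number it was called at 1.07. That fit also called ZTR_05991 and ZTR_09490 as higher and ZTR_01331 as lower, beside 12.7% higher and 11.6% lower of all genes tested. Replicate 1 is what the genes were chosen to be high in, so nothing is read from these calls. ZTR_04307 was at 0.07 with an SE of 0.41. The sign of the median rested on single libraries, since it was 0.31 without control 1 and 0.14 without pectin 3. Its size depended on the scaling and the test, at −0.50 with library size only and −0.06 with limma-voom. Over all genes tested the median was −0.21 with library size only and 0.006 with limma-voom.

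**Figure D4:**
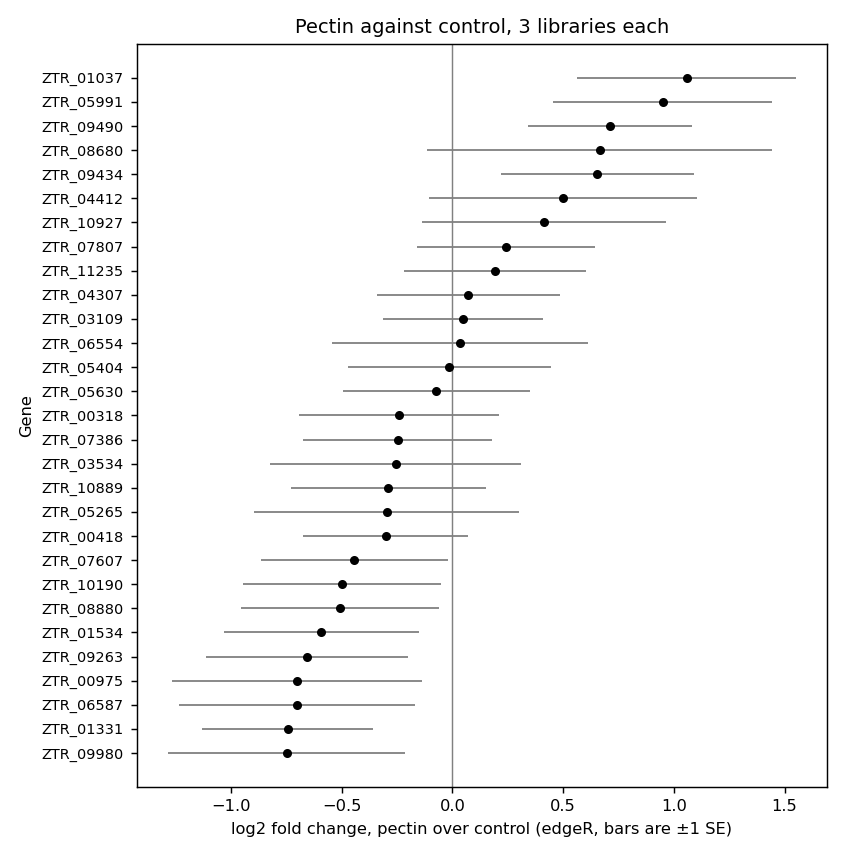
log2 fold change of pectin over control for each of the 29 genes (edgeR, 3 libraries a group), with bars of ±1 standard error. The values run from −0.75 to 1.06, and 0 of the 29 passed an adjusted p of 0.05.

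The genes were not gathered in one place of the genome. They lay on 26 of 286 contigs with annotated genes, 13 on the plus and 16 on the minus strand, and 0 of them had another of the 29 as a direct neighbour. The nearest pair on one contig was ZTR_06554 and ZTR_06587 on LHCL01000062, with 6 annotated genes and 19891 bp between them. The other 2 pairs on one contig were 271522 and 951732 bp apart. Only ZTR_10190, on LHCL01000096 from 415 to 1218, was the first or last annotated gene of its contig, or 3.45% of the set beside 4.07% of expressed genes. The median distance to the nearest annotated gene was 593 bp, beside 490 bp for expressed genes.

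Direct neighbours of the 29 genes were not chosen by their folds. Of 30 such neighbours with a mean RPKM of at least 5, 16 (53.3%) were higher in replicate 1 than in replicate 3 in both groups. For the neighbours of all expressed genes the share was 37.2%. The median fold of these 30 neighbours was 1.19 in control and 1.21 with pectin, beside 1.07 and 0.986 for the neighbours of all expressed genes. These differences were not tested. The folds of the set are no measure for them, since the choice of the genes made those large.

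The 29 genes were short. Their coding sequences, which hold no UTRs in these annotations, had a median of 1032 bp and ran from 450 to 2559 bp, beside a median of 1356 bp in expressed genes and 1494 bp in the mirror set. A coding sequence under 1356 bp was found in 23 of 29 (79.3%), and in 40.1% of the mirror set. They had 1 to 6 exons with a median of 2. A single exon was found in 4 (13.8%), beside 19.9% of expressed genes and 40.1% of the mirror set, and 2 exons in 11 (37.9%), beside 22.7% and 23.0%.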

How the data were processed

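Per the labels, poly-T purified RNA of 6 mycelial cultures was read as paired ends. Which aligner, counter, strand setting and build were used is not given in the sources used here, so antisense reads cannot be told apart. Per the file headers, the authors deposited read counts per gene for exons, junctions and introns (here reads outside exons, since genes with 1 exon have them too), and RPKM, from which digit separators were removed. The genes, measures and tests were chosen with earlier results of these data known.

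Counts were tested with edgeR 4.0.16 (R 4.3.3) by robust quasi-likelihood, with TMM factors, filterByExpr (9177 genes kept, 2149 left out) and Benjamini-Hochberg adjustment over all genes tested, threshold 0.05. A change in what part of the reads lay outside exons was tested by the interaction between group and kind of read in 1 model holding a term per library, each kind scaled to its own total, where a gene had 60 or more reads of both kinds. Both tests were run on simulated data with known changes, where most 2-fold changes were missed. The smallest exact permutation p of 3 against 3 libraries is 0.1. P-values measure only the spread between these cultures. No library was a copy of another (chi-square per degree of freedom within groups 33.9 to 135.4). Named genes were the 6 with the highest mean RPKM, the 6 with the largest smaller fold, and 2 on each side of the fold threshold, besides members in runs of adjacent genes and members called in either test, of which there were 0. Alternatives in scaling, filter, test, reads and left-out libraries used DESeq2 1.42.0 and limma 3.58.1. Sequences were not analysed here.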

Additional observations from a re-analysis of the deposited data

How the results depend on the processing

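Which genes meet the rule depended on its settings. Against 29 genes, a fold of at least 1.5 gave 246, of at least 3 gave 2, a mean RPKM of at least 1 gave 67 and of at least 20 gave 11. TMM factors gave 47 and DESeq2 size factors 48, each holding 26 of the 29. Dropping the limit on the pectin to control ratio gave 75, the fold in control only 341 and in pectin only 59. Leaving out replicate 2 of a group from the means gave 26 to 29, of which 23 (control) and 27 (pectin) were among the 29. The rule could not be applied without replicates 1 or 3. Direct neighbours within the set numbered 27 at 1.5-fold and 4 with TMM factors, against 0. Replicate 2 lay in between in both groups in 21 genes with TMM or DESeq2 factors and in 15 by reads outside exons, against 22.

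For pectin, with 0 genes called in the set, the fits without 1 library each called 0 to 1 as higher and 0 to 0 as lower, beside 3.50% to 10.1% and 2.04% to 7.65% of all genes tested. Leaving out control 1 and pectin 1 together, chosen after seeing the data, gave 1 higher, ZTR_01037, beside 9.45% higher and 7.51% lower of all genes. Library size only moved the median of all genes tested to −0.21. The share of reads outside exons gave 0 calls under every alternative run, the replicate block included (0.484% higher and 1.48% lower of all genes). So few of all genes were called that 0 in the set shows no stability.

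Replicate numbers are shared between groups but are not said to mark pairs. Deviations from the group mean of same-numbered libraries correlated at 0.46, 0.059 and 0.413 over the genes tested (log2 CPM with TMM). Over genes with a mean RPKM of at least 5 (log2 RPKM) they correlated at 0.581, 0.149 and 0.511. In both cases the value was lowest for replicate 2, so the numbers were not taken as pairs. Control 2 was most like pectin 3 (0.341 and 0.416), not pectin 2. Each pectin library, however, correlated most with the control of its own number in both cases. For pectin 2 the values were 0.059 with control 2 and 0.0445 with control 1 over the genes tested. Over genes with a mean RPKM of at least 5 they were 0.149 and −0.0285. With the replicate block 3 of the 29 genes were higher (ZTR_01037, ZTR_05991 and ZTR_09490) and 1 lower (ZTR_01331), with a median log2 change of −0.06, beside 12.7% and 11.6% of all genes tested. The genes were chosen for the very difference that this block takes out.

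Of 16 named genes over 15 alternatives, log2 changes with pectin kept direction and call in 207 cases, passed the threshold in 6 and turned in 24, and no turned value was called. With a filter of 10 CPM, ZTR_00418, ZTR_06587 and ZTR_08680 were not tested. With library size only, ZTR_03109 was at −0.20, ZTR_04307 at −0.17 and ZTR_07807 at −0.013. With a filter of 10 CPM, ZTR_03109 was at −0.066 and ZTR_04307 at −0.044. With limma-voom ZTR_03109 was at −0.0012 and with the replicate block at −0.0014. Without control 1 and pectin 1 together, ZTR_03109 was at −0.19 and ZTR_04307 at −0.098. Leaving out 1 library gave −0.43 to 0.26 for ZTR_03109, −0.38 to 0.35 for ZTR_04307, −0.99 to 0.14 for ZTR_05265, −0.57 to 0.36 for ZTR_05404, −0.54 to 0.31 for ZTR_05630, −0.019 to 0.71 for ZTR_07807, −0.39 to 1.60 for ZTR_08680, −0.70 to 0.037 for ZTR_10204 and −0.29 to 0.95 for ZTR_10927. The cause was not tested.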
